A study of Mus musculus with 2 samples.

Results

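The 7 genes described here, *Foxp3*, *Ikzf2*, *Ikzf4*, *Izumo1r*, *Capg*, *Nrp1* and *Lrrc32*, are genes by which regulatory T (Treg) cells are recognised, and they were chosen by name from the 31053 mouse genes counted. To see how far they mark cells with *Foxp3* transcript and how far they appear outside them, their levels were compared across sets of single T cells from mouse melanoma. B16 is a melanoma line of C57BL/6 mice, and B16–IL-33 is the same line engineered to overexpress secreted IL-33. Both were grown intradermally in C57BL/6J mice, no treatment was given, and TCR-β+ T cells were sorted on day 9. Cells of both tumors were labelled with hashtag antibodies and loaded as 1 pool, with no separate library for an animal. Each tumor had a pair of numbered hashtags, but the labels do not say whether the numbers mark different animals, so each tumor was counted as a single sample and the numbers were used only to repeat the comparison. All intervals are at 95% and cover counting error only.

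FOXP3 is a transcription factor of the forkhead family that defines the Treg lineage, and its loss causes fatal autoimmunity in mice and humans. HELIOS, encoded by *Ikzf2*, and EOS, encoded by *Ikzf4*, are zinc-finger factors of the Ikaros family. EOS binds FOXP3 and takes part in gene silencing by it. *Izumo1r* encodes folate receptor 4, *Capg* an actin-capping protein of the gelsolin family, *Nrp1* neuropilin-1, a co-receptor for semaphorins and VEGF, and *Lrrc32* the protein GARP, which holds latent TGF-β on the cell surface. Conventional CD4+ T cells can express several of these genes after activation, and macrophages express *Capg* and *Nrp1*.

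The gene expression library held 14035 barcodes, of which 9078 had 200 to 2500 detected genes and under 5% mitochondrial unique molecular identifiers (UMIs), with a median of 2467 UMIs. *Cd3e* was detected in 7178 of these cells. The Foxp3+ set held the 2561 *Cd3e*-positive cells with at least 1 *Foxp3* UMI, and the Cd4+Foxp3- set the 1656 cells with *Cd4* and no *Foxp3*. The CD8 set held 1127 cells with more *Cd8a* and *Cd8b1* UMIs than *Cd4* and *Foxp3* UMIs, and the Zbtb16+ set 79 cells with *Zbtb16*, the factor that directs natural killer T (NKT) cells. Their median depths were 3083, 2716, 3686 and 3174 UMIs. The sets overlapped: 75 cells were both Foxp3+ and CD8, 8 both Foxp3+ and Zbtb16+, 54 both Cd4+Foxp3- and CD8, 21 both Cd4+Foxp3- and Zbtb16+, and 6 both CD8 and Zbtb16+. A further 1918 *Cd3e*-positive cells, 26.7%, fell in none of the sets. *Foxp3* was sparse, since 41.7% of Foxp3+ cells held exactly 1 UMI of it, so some cells of the other sets may carry the transcript undetected.

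Readouts other than the genes that define the sets were checked for the Foxp3+ and Zbtb16+ labels. None was checked for the CD8 and Cd4+Foxp3- labels. *Cd8a* or *Cd8b1* was seen in 12.5% of Foxp3+ and 10.0% of Cd4+Foxp3- cells. *Il2ra*, the high-affinity IL-2 receptor chain, stood at 430 summed UMIs per 1000000 UMIs of the set (CPM) in Foxp3+ cells and at 105, 54.6 and 62.0 CPM in the Cd4+Foxp3-, CD8 and Zbtb16+ cells. *Ctla4* stood at 1152, 428, 228 and 213 CPM in the same order. Of 27 Zbtb16+ cells with an α chain, 15 carried the invariant TRAV11–TRAJ18 rearrangement of NKT cells. It was found in 54 *Cd3e*-positive cells in all, so most cells with it lay outside the Zbtb16+ set. The 5 melanoma markers summed to at most 14.6 CPM in the 4 sets. The 10 myeloid markers summed to 226, 264, 256 and 134 CPM and were seen in 15.8, 12.3, 24.3 and 19.0% of cells, against 14906 CPM in 259 *Cd3e*-negative cells with at least 10 myeloid marker UMIs. The 7 dendritic cell markers, nearly all from MHC class II genes, summed to 618, 361 and 137 CPM in the Foxp3+, Cd4+Foxp3- and CD8 sets, and their part in the ratios between these sets was not tested. The myeloid cells, with a median of 4325 UMIs, served as a level for comparison for the genes that myeloid cells lack. T cell markers were seen in 35.5% of them, so free RNA and doublets with T cells were not told apart there.

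Promoter sequence was at hand for 4 of the 7 genes and is shown for *Foxp3*, which defines the Foxp3+ set, for *Capg* and *Izumo1r*, which were higher in that set, and for *Nrp1*, which was not. The bases are the part of the 250 upstream of a start site that holds no untranslated or coding sequence, from RefSeq, assembly GRCm38.p6. Capitals mark matches on either strand to a forkhead motif (TGTTTNC), a STAT motif (TTCNNNGAA) or the Ikaros core (TGGGAA), and an AP-1 motif (TGANTCA) was also searched.
Foxp3, chrX:7580233-7580482, plus strand: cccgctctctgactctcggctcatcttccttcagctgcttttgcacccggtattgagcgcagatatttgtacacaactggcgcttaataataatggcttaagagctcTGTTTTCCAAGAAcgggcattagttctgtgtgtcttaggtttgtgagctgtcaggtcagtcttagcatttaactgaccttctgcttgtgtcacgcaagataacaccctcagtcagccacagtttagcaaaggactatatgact
Capg, chr6:72549502-72549646, plus strand: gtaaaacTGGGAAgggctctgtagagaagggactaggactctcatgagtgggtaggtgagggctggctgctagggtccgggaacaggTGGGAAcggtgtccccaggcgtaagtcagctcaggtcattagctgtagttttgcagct
Izumo1r, chr9:14903950-14904017, minus strand: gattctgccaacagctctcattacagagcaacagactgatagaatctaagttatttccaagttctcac
Nrp1, chr8:128358823-128359072, plus strand: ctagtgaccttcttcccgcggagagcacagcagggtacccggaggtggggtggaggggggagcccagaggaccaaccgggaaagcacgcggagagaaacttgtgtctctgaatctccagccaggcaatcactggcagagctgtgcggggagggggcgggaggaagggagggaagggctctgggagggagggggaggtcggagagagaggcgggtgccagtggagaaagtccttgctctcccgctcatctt
*Foxp3* has a pair of start sites in the table, and the window of the other, at chrX:7579426-7579566, held no searched motif and is not shown. In the *Foxp3* window shown, 1 forkhead and 1 STAT match overlapped, motifs held by 17.84% and 7.02% of 32851 mouse promoters over the same bases. The *Capg* window held 2 Ikaros core matches, a motif in 12.62% of promoters over those bases. No searched motif was in the *Izumo1r* or the *Nrp1* window, which says nothing of the factors themselves.

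*Foxp3* (ENSMUSG00000039521, GRCm38 chromosome X, 7573644 to 7595245) held 6024 UMIs in Foxp3+ cells, or 678 CPM (interval 661–695). In the CD8 set it stood at 22.0 CPM (18.0–26.7), and 6.65% of cells carried it. In the myeloid cells, which should lack it, it stood at 16.1 CPM (9.70–25.2) and was carried by 5.79% of cells. The CPM intervals of the CD8 set and the myeloid cells overlapped. *Foxp3* UMIs count against entry to the CD8 set, and the part of free RNA or doublets in either level was not tested. Thinned to 1500 UMIs per cell, the shares were 3.12% (2.15–4.35) of 1059 CD8 cells and 1.32% (0.272–3.80) of 228 myeloid cells. Of the 79 Zbtb16+ cells, 8 carried *Foxp3*, with 19 UMIs in all. The long noncoding RNA gene *Flicr* overlaps *Foxp3* on the same strand, and transcripts from shared exon sequence cannot be told apart.

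The Ikaros family pair were both highest in Foxp3+ cells. *Ikzf2* (ENSMUSG00000025997, chromosome 1, 69531214 to 69687245) stood at 826 CPM (807–845) in Foxp3+, 273 (259–288) in Cd4+Foxp3-, 163 (151–174) in CD8 and 186 (140–243) in Zbtb16+ cells. None of these was as low as the 43.3 CPM (32.2–56.9) of the myeloid cells. It was thus detected well outside Foxp3+ cells, in 35.4% of Cd4+Foxp3- and 31.9% of CD8 cells, against 83.1% of Foxp3+ cells and 12.4% of myeloid cells. At 1500 UMIs per cell these shares were 23.0, 17.8, 66.1 and 7.89%. *Ikzf4* (ENSMUSG00000002578, chromosome 10, 128630843 to 128645991) stood at 60.2 CPM (55.2–65.5) in Foxp3+, 24.9 (20.7–29.6) in Cd4+Foxp3- and 9.10 (6.59–12.3) in CD8 cells. The CD8 interval overlapped that of the myeloid cells, 4.24 CPM (1.38–9.90), and the Zbtb16+ cells held only 3 UMIs.

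The surface molecules fell into 3 patterns. *Izumo1r* (ENSMUSG00000031933, chromosome 9, 14885814 to 14903949) stood at 408 CPM (395–422) in Foxp3+ cells, at 171 (160–183) in Cd4+Foxp3- and 189 (143–247) in Zbtb16+ cells, whose intervals overlapped, and at 43.0 (37.3–49.3) in CD8 cells. The CD8 level still exceeded the 20.4 CPM (13.0–30.3) of the myeloid cells. *Lrrc32* (ENSMUSG00000090958, chromosome 7, 98489283 to 98502181) stood at 52.2 CPM (47.5–57.2) in Foxp3+ and 13.0 (10.1–16.5) in Cd4+Foxp3- cells. In CD8 cells it stood at 5.08 CPM (3.25–7.56), a range that overlapped the myeloid level of 4.24 CPM (1.38–9.90), and the Zbtb16+ cells held 2 UMIs. *Nrp1* (ENSMUSG00000025810, chromosome 8, 128358604 to 128503363) did not follow *Foxp3*: it stood at 38.4 CPM (34.4–42.7) in Foxp3+, 45.6 (40.0–51.9) in Cd4+Foxp3-, 44.8 (23.8–76.5) in Zbtb16+ and 21.4 (17.4–26.0) in CD8 cells. The first 3 of these intervals overlapped one another, and only the CD8 interval lay apart from those of the Foxp3+ and Cd4+Foxp3- cells.

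*Capg* (ENSMUSG00000056737, chromosome 6, 72544391 to 72562983) stood at 669 CPM (652–687) in Foxp3+, 251 (238–265) in Cd4+Foxp3-, 182 (170–194) in CD8 and 213 (164–274) in Zbtb16+ cells. It was the gene of the 7 with the highest level in the myeloid cells, 807 CPM (756–860), and was carried by 71.0% of them. Without the cells with any myeloid marker UMI, the log2 ratio of *Capg* in Foxp3+ over Cd4+Foxp3- cells was 1.44, against 1.41 with them, and in Foxp3+ over CD8 cells 1.89, against 1.88.

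**Figure D1:**
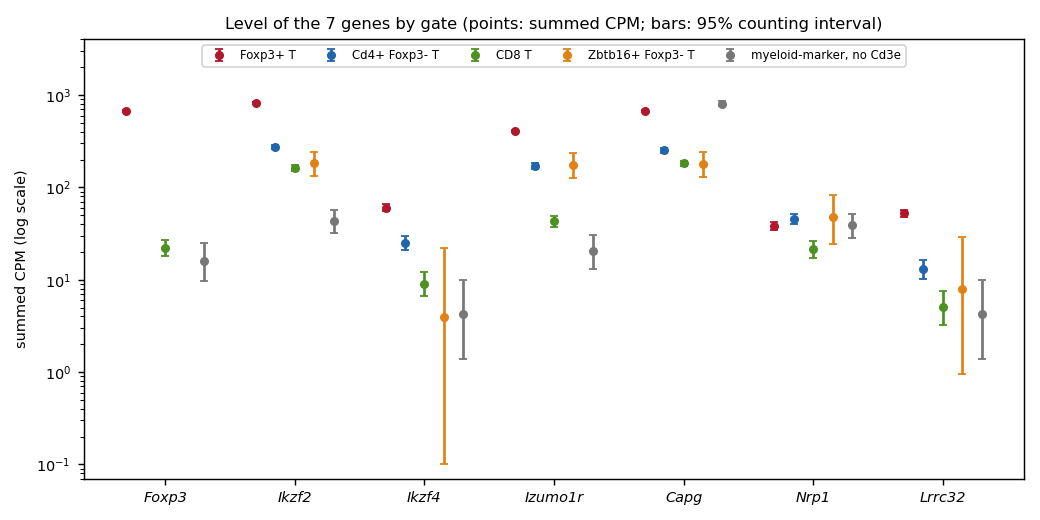
Summed CPM (log scale) of the 7 genes in the Foxp3+, Cd4+Foxp3-, CD8 and Zbtb16+ Foxp3- T cells and in myeloid-marker cells without Cd3e, with 95% counting intervals as bars; Foxp3 has no point where its absence defines the set. The Foxp3+ point is the highest of the T cell sets for 6 genes, whereas Nrp1 stood at 38.4 CPM there and at 45.6 CPM in Cd4+Foxp3- cells.

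Across the genes, 5 of the 6 other members were at least 2-fold higher in Foxp3+ than in Cd4+Foxp3- cells, whereas 3.42% of the 7971 genes with at least 100 UMIs over both sets were, and 1.54% were at 0.5-fold or lower. *Lrrc32* had the largest ratio, 4.01 (3.10–5.26), rank 21 of the 7971 genes. *Ikzf2* followed at 3.02 (2.85–3.20), rank 70, *Capg* at 2.66 (2.51–2.83), rank 107, *Ikzf4* at 2.42 (1.99–2.96), rank 151, and *Izumo1r* at 2.39 (2.22–2.57), rank 159. Each of these intervals overlapped the next in this order, except those of *Ikzf2* and *Capg*. *Nrp1* had a ratio of 0.840 (0.710–0.997), rank 6738.

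The same 5 genes passed 2-fold against CD8 cells, where 7.92% of 7843 genes did and 2.05% were at 0.5-fold or lower. *Lrrc32* was 10.3-fold (6.82–16.2), *Izumo1r* 9.50-fold (8.24–11.0), *Ikzf4* 6.61-fold (4.84–9.25), *Ikzf2* 5.08-fold (4.72–5.48) and *Capg* 3.69-fold (3.43–3.96) higher in Foxp3+ cells. *Nrp1* was 1.79-fold higher (1.43–2.26). The order differed from that against Cd4+Foxp3- cells, with *Izumo1r* moving from the lowest of the 5 to the second place. The comparisons share the Foxp3+ cells, so they are not independent of each other.

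Against the 71 Zbtb16+ cells without *Foxp3*, the same 5 genes were again past 2-fold, but so were 18.3% of 6893 genes, and 3.96% were at 0.5-fold or lower. In simulated data, 7.366% of unchanged genes reached 2-fold in this comparison by counting error. *Capg* was 3.74-fold (2.79–5.14), *Ikzf2* 4.52-fold (3.38–6.18) and *Izumo1r* 2.33-fold (1.73–3.22) higher in Foxp3+ cells. *Lrrc32*, with 2 UMIs in the Zbtb16+ cells, had a ratio of 6.56 (1.81–54.4), and *Ikzf4*, with 1 UMI, of 15.1 (2.71–599). *Nrp1* had a ratio of 0.804 (0.454–1.57), an interval that includes 1.

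Of the genes with at least 200 UMIs over the Foxp3+ and Cd4+Foxp3- cells, the 10 with the highest ratios were *Foxp3*, *Ccr3* (5.27), *St3gal5* (4.69), *Rln3* (4.48), *Csrp2* (4.40), *Igkc* (4.27), *Cnih2* (4.13), *Il2ra* (4.08), *Dgat2* (4.07) and *Lrrc32* (4.01), of 6176 genes. Beside *Igkc*, an immunoglobulin light chain gene, the B cell markers *Cd79a*, *Cd79b* and *Ms4a1* summed to 20.1 CPM in Foxp3+ and 4.66 CPM in Cd4+Foxp3- cells, mostly as *Cd79b*, with *Ms4a1* at 2 UMIs in the Foxp3+ cells. The part of B cell RNA in that ratio was not tested. The 5 lowest were *Hba-a1*, *Hba-a2* and *Hbb-bs*, the hemoglobin genes, *Tnfsf11* (0.152), which encodes RANKL, and *Igfbp4* (0.160). The hemoglobin UMIs of the Cd4+Foxp3- set came from at most 10 cells per gene, 624 of the 783 *Hbb-bs* UMIs from a single cell.

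Genes known to go with Treg cells were higher as well, in a list chosen with earlier results of these data known. The study had named *Il1rl1*, *Areg* and *Klrg1*, which are on the list, as markers of a Treg cluster in B16 and B16–IL-33 tumors. Of 22 listed Treg-associated surface and effector genes, 21 had enough UMIs, 17 were at least 2-fold higher in Foxp3+ than Cd4+Foxp3- cells and 0 at 0.5-fold or lower, with a median log2 ratio of 1.31 against 0.09 over all genes. *Il2ra* (4.08), *Klrg1* (3.80), *Itgae* (3.59), the αE integrin chain, and *Areg* (3.40), which encodes amphiregulin, were the highest, and *Nt5e* (1.22) and *Il2rb* (1.52) the lowest. Of 13 genes known to be low in Treg cells, 9 had enough UMIs, 6 were at 0.5-fold or lower and 0 at 2-fold, with a median log2 ratio of -1.29. *Tcf7* (0.203), a factor of naive and memory T cells, and *Cd40lg* (0.235), the helper T cell ligand of CD40, were the lowest, whereas *Satb1* (1.13), *Il17a* (0.877), *Il7r* (0.847) and *Ifng* (0.496) were the highest.

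Regulators and relatives of the members passed 2-fold about as rarely as all genes, of which 3.42% did upward and 1.54% downward. Of 22 regulators and partners of FOXP3, *Prdm1* alone, which encodes BLIMP-1, was past 2-fold (2.33), followed by *Batf* (1.61), *Mbd2* (1.55) and *Stat5a* (1.49). *Bach2* (0.224), a repressor of effector genes, and *Smad3* (0.587) were the lowest, and the median log2 ratio of the list was 0.16. Of 16 family members and paralogs, 10 had enough UMIs and 0 passed 2-fold in either direction, from *Ikzf3* (1.49), which encodes AIOLOS, *Nrros* (1.26), a GARP relative, *Capza2* (1.26) and *Capzb* (1.22) down to *Ikzf1* (0.748) and *Foxp1* (0.646).

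GARP presents latent TGF-β to integrins, and 2 integrin chains were past 2-fold among 9 measured genes of 14 in that axis, against 3.42% of all genes. *Itgb8* is also counted in the Treg-associated list. *Itgb8* stood at 2.73-fold and *Itgav* at 2.26-fold, the chains of the αvβ8 integrin that releases TGF-β, followed by *Tgfbr1* (1.48) and *Tgfb1* (1.15). *Tgfbr2* (0.545) and *Smad3* (0.587) were the lowest. Of 11 semaphorin and VEGF ligands and partners of neuropilin-1, only *Sema4a* had enough UMIs, at 0.428-fold.

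Against CD8 cells, where 7.92% of genes were at 2-fold or more and 2.05% at 0.5-fold or lower, 20 of the 21 Treg-associated genes passed 2-fold, from *Itgae* (12.4), *Itgb8* (10.3), *Areg* (9.69) and *Tnfrsf4* (9.49) down to *Entpd1* (2.39), whereas *Il2rb* (1.29) did not. The genes known to be low in Treg cells were mixed in this comparison, with 4 of 9 at 0.5-fold or lower, among them *Ifng* (0.155) and *Pde3b* (0.220). *Il17a* (8.12) of that list was past 2-fold, and *Cd40lg* and *Il7r* both stood at 1.96. Of the regulators and partners of FOXP3, 4 of 22 passed 2-fold, *Prdm1* (2.70), *Gata3* (2.38), *Foxo3* (2.36) and *Runx1* (2.05), and *Bach2* (0.298) was at 0.5-fold or lower. In the TGF-β axis 4 of 9 passed 2-fold, *Itgb8* (10.3), *Itgav* (4.62), *Tgfbr1* (2.95) and *Furin* (2.09). None of the 10 family members and paralogs passed 2-fold in either direction.

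Since a share of cells with a UMI depends on depth, cells were next thinned to 1500 UMIs, which left out 329 Foxp3+, 232 Cd4+Foxp3- and 68 CD8 cells as too shallow. *Foxp3* itself was kept in 1521 of 2232 Foxp3+ cells (68.1%). Over all 6069 thinned T cells, 63.6% (61.6–65.6) of *Ikzf2*-positive cells had been Foxp3+ before thinning, against 20.2% (18.9–21.5) of *Ikzf2*-negative cells. The same shares were 61.3 and 23.2% for *Capg*, 59.1 and 30.3% for *Izumo1r*, 61.9 and 35.4% for *Ikzf4* and 73.7 and 35.4% for *Lrrc32*. Detection of *Nrp1* did not go with *Foxp3*, at 36.9% of positive and 36.8% of negative cells. Median depths of gene-positive and gene-negative cells lay between 2737 and 3195 UMIs.

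Within the CD8 set, co-detection with *Foxp3* was rare, in part by the rule of the set, which counts *Foxp3* UMIs against entry. Of 188 *Ikzf2*-positive CD8 cells 23 were Foxp3+ (12.2%, 7.92–17.8), against 51 of 871 negative cells (5.86%, 4.39–7.63). Of 13 *Ikzf4*-positive CD8 cells 6 were Foxp3+, against 68 of 1046. The positive cells were deeper before thinning, with medians of 4195 and 3798 UMIs for *Ikzf2* and 4953 and 3822 for *Ikzf4*. With *Foxp3* also counted at 1500 UMIs, the shares were 5.32% (2.58–9.56) and 2.64% (1.68–3.94) for *Ikzf2* and 2 of 13 (1.92–45.4%) and 2.96% (2.02–4.18) for *Ikzf4*, with overlapping intervals for both genes. The Zbtb16+ cells were too few to compare: 2 of 17 *Ikzf2*-positive and 6 of 61 *Ikzf2*-negative cells were Foxp3+.

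Counted per cell at equal depth, 1389 of 2232 Foxp3+ cells carried at least 2 of the 6 other genes (62.2%, 60.2–64.2). The share was 18.2% (16.2–20.3) of 1424 Cd4+Foxp3- cells, 6.89% (5.44–8.59) of 1059 CD8 cells and 12.9% (6.05–23.0) of 70 Zbtb16+ cells without *Foxp3*. Before thinning, the shares were 82.1, 35.7, 23.0 and 40.8%. None of the 6 was seen in 10.1, 48.2, 62.8 and 52.9% of the thinned cells of these sets. The pair *Ikzf2* and *Capg* was the most frequent combination in Foxp3+ cells, with 442 cells (19.8%), whereas in Cd4+Foxp3- cells *Capg* alone (165 cells), *Ikzf2* alone (138) and *Izumo1r* alone (113) were, ahead of *Ikzf2* with *Capg* (64).

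**Figure D2:**
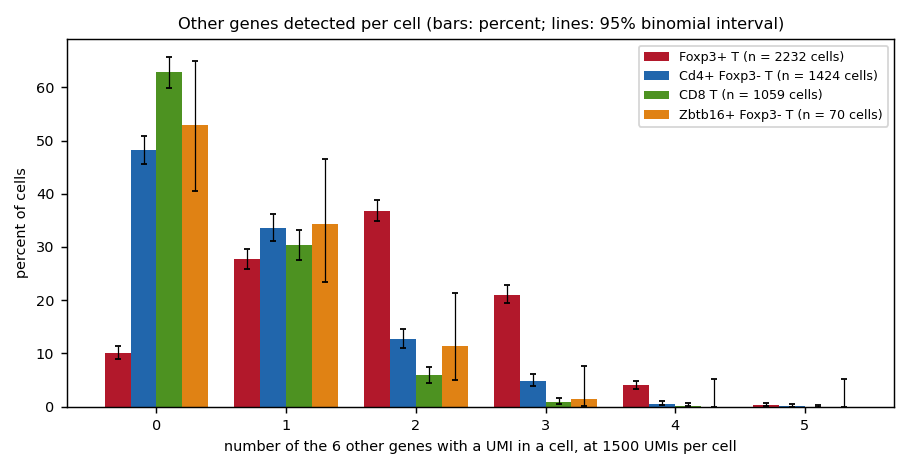
Percent of cells (y axis, from 0) by how many of the 6 other genes had a UMI at 1500 UMIs per cell (x axis), in 4 sets of T cells, with 95% binomial intervals as lines. The Foxp3+ bars peak at 2 genes, and the bars of the other 3 sets peak at 0 genes, with 48.2% of Cd4+Foxp3- and 62.8% of CD8 cells.

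Whether the genes were detected in the same Cd4+Foxp3- cells was then examined. For each gene in turn, cells were grouped by how many of the remaining 5 they carried. *Ikzf2* was seen in 16.7% (14.3–19.5) of cells with none of the other 5 and 48.9% (40.2–57.6) of cells with at least 2. The same shares were 19.4 and 41.3% for *Capg*, 14.1 and 34.6% for *Izumo1r*, 2.28 and 8.91% for *Ikzf4* and 0.580 and 4.71% for *Lrrc32*. For each of these 5 genes the 2 intervals lay apart, and so did the ranges over 20 further random draws of 1500 UMIs, chosen after the data were seen. *Nrp1* differed, at 5.90% (4.30–7.86) and 7.14% (4.14–11.3), and in Foxp3+ cells at 6.64% (3.84–10.6) and 4.94% (3.85–6.23). Grouped instead by *Nrp1* at full depth, Cd4+Foxp3- cells with *Nrp1* had 0.517-fold *Ikzf4* (0.242–0.985, 10 UMIs in cells with *Nrp1*) and 0.286-fold *Lrrc32* (0.0575–0.875, 3 UMIs) of those without, and *Ikzf2*, *Izumo1r* and *Capg* had ratios of 1.03 to 1.06. No gene of the 4 with at least 100 UMIs passed 2-fold in either direction, as 0.252% and 1.09% of 5154 genes did.

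Cd4+Foxp3- cells with at least 2 of the other genes also resembled Foxp3+ cells in genes that did not choose them. At equal depth *Il2ra* stood at 301 CPM (249–361) in the 259 cells with at least 2 and 59.5 (48.6–72.1) in the 1165 with fewer, against 427 in Foxp3+ cells. *Ctla4* stood at 826, 279 and 1231 CPM in the same order, and *Ccr8*, a chemokine receptor of tumor Treg cells, at 162, 37.8 and 194 CPM. *Tcf7* went the other way, at 124, 324 and 57.9 CPM, as did *Cd40lg*, at 56.6, 172 and 36.7 CPM. In all UMIs, 15 of 19 Treg-associated genes were at least 2-fold higher in the 259 cells, against 3.07% of 4947 genes, with a median log2 ratio of 1.72 against 0.12 over all genes, and 4 of 9 genes known to be low in Treg cells were at 0.5-fold or lower, against 1.03%. *Areg* (7.71), *Klrg1* (6.24), *Il2ra* (4.81) and *Itgae* (4.79) were the highest of the former list, *Nt5e* (1.26) and *Il2rb* (1.51) the lowest, and the latter list ranged from *Satb1* (0.971) to *Cd40lg* (0.325).

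The 259 cells were not deeper, with medians of 2859 and 2971 UMIs, and carried 2 or more productive β chains as often, in 11.2 and 11.3% of cells with a β chain. The 10 myeloid markers summed to 202 CPM in the 259 cells and 289 in the others. The 7 dendritic cell markers summed to 1001 and 217 CPM, nearly all from *Cd74*, *H2-Aa* and *H2-Ab1*, whereas *Siglech* and *Clec9a* were at 0 UMIs and *Flt3* and *Xcr1* at 2 and 1 UMIs in the 259 cells. The B cell markers summed to 18.5 and 1.99 CPM, all of it *Cd79b*. The part of these MHC class II and *Cd79b* transcripts in the result was not tested.

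Within the Foxp3+ set, cells were next grouped by the *Foxp3* UMIs that thinning left, 711 cells with 0, 920 with 1, 374 with 2 and 227 with 3 or more. *Ikzf2* stood at 762, 844, 996 and 1043 CPM in this order, against 269 in Cd4+Foxp3- cells. *Capg* stood at 633, 690, 677 and 758 CPM against 221, and *Izumo1r* at 359, 412, 533 and 490 CPM against 166. *Lrrc32* stood at 33.8, 60.1, 64.2 and 73.4 CPM against 9.36, and *Ikzf4* at 46.9, 63.8, 66.0 and 88.1 CPM against 26.7. The cells whose thinned profile held no *Foxp3* were above the Cd4+Foxp3- cells for these 5 genes, with intervals that lay apart for each. They had entered the Foxp3+ set by a *Foxp3* UMI at full depth, so this repeats the comparison of the sets with part of the cells. *Nrp1* showed no order, at 29.1, 46.4, 44.6 and 32.3 CPM against 48.2. The 711 cells were deeper before thinning than the rest, with medians of 4118 and 3066 UMIs, carried 2 or more β chains more often (16.4 and 8.26%) and held more CD8 marker transcript, at 133 and 83.4 CPM, and more myeloid marker transcript, at 327 and 167 CPM. The part of these in the values was not tested.

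**Figure D3:**
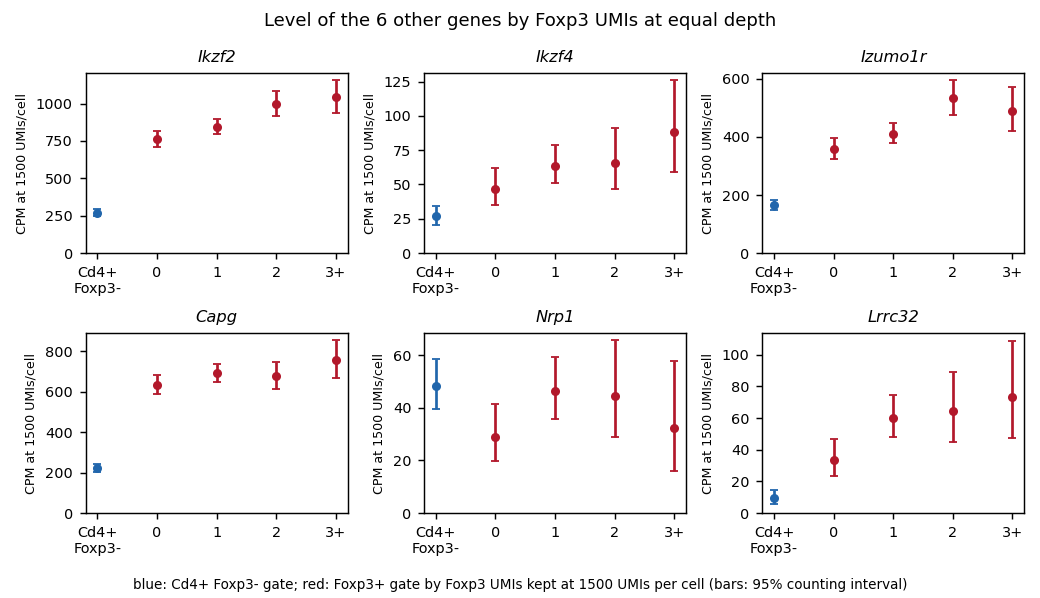
CPM of the 6 other genes at 1500 UMIs per cell (y axes, each from 0) in Cd4+Foxp3- cells (blue) and in Foxp3+ cells by Foxp3 UMIs left after thinning (red), with 95% counting intervals. All 4 red points lie above the blue point for 5 genes, and none does for Nrp1, which stood at 48.2 CPM in Cd4+Foxp3- cells.

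The 75 cells that were both CD8 and Foxp3+ carried 104 *Foxp3* UMIs. Of these cells 17 held *Cd4*, against 54 of the 1052 CD8 cells without *Foxp3*, and *Cd4* stood at 65.4 and 14.7 CPM. Against the 1052 CD8 cells without *Foxp3*, *Ikzf2* stood at 288 CPM (236–347) and 152 (140–164), *Capg* at 288 (236–347) and 172 (160–185), *Izumo1r* at 91.5 (63.7–127) and 38.7 (33.1–45.0), *Ikzf4* at 34.0 (18.1–58.1) and 6.91 (4.66–9.86) and *Lrrc32* at 20.9 (9.03–41.2) and 3.68 (2.11–5.98). These 5 genes were thus higher in the cells with *Foxp3*, with intervals that lay apart, and *Nrp1* was not, at 15.7 (5.76–34.1) and 21.9 (17.7–26.7). *Il2ra* stood at 180 and 43.5 CPM, *Ctla4* at 620 and 194, and *Cd8b1* at 1025 and 854. By the rule of the CD8 set, a cell with *Foxp3* UMIs needs more *Cd8a* and *Cd8b1* UMIs to enter. The part of this rule in the *Cd8b1* level and in depth was not tested. The 75 cells were also deeper, with medians of 5299 and 3609.5 UMIs, and 13 of 63 with a β chain carried at least 2 (20.6%), against 72 of 786 (9.16%). The part of doublets of a CD8 and a Treg cell in these values was not tested.

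To see how the genes vary within each set, the T cells were split into 12 classes that share no cell, by *Mki67* or *Top2a* (cycling), *Il1rl1*, and *Tcf7* or *Ccr7* (central). *Foxp3* itself stood at 743 CPM (718–769) in Foxp3+ other, 727 (680–777) in Il1rl1+, 638 (605–672) in cycling and 445 (406–486) in central cells. Each of these cells had been chosen by a *Foxp3* UMI, and the median depths were 2778.5, 3089, 3873.5 and 3719.5 UMIs in the same order. The part of this choice and of depth in the *Foxp3* levels was not tested. For *Ikzf2*, *Ikzf4*, *Izumo1r*, *Capg* and *Lrrc32* the 4 Foxp3+ classes held the 4 highest levels. The 270 Foxp3+ central cells were the lowest of these 4 classes for several genes. *Ikzf2* stood at 522 CPM (480–566) there and at 836 to 892 in the other 3 classes, and *Capg* at 436 (397–476) there and at 640 to 745 in the others, with intervals that lay apart. *Izumo1r* was higher in Foxp3+ other cells (473 CPM, 452–494) than in Foxp3+ Il1rl1+ (355, 322–390), cycling (350, 326–375) and central cells (332, 299–368). *Lrrc32* ranged from 62.9 CPM (55.6–70.8) in Foxp3+ other to 37.3 (26.8–50.6) in Foxp3+ central cells, with intervals that lay apart, and the interval of the central cells overlapped that of Cd4+ other cells. *Ikzf4* stood at 78.5 CPM (63.5–95.8) in Foxp3+ Il1rl1+ and at 56.6 to 58.5 in the other 3 classes, with overlapping intervals between neighbours.

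Outside the Foxp3+ set the classes of 1 lineage differed from each other. In CD8 cells *Ikzf2* was highest in central cells, at 205 CPM (183–230), above cycling (124, 104–146) and other cells (126, 110–144), whereas *Capg* was lowest there, at 99.6 CPM (83.9–117) against 236 (214–260) in CD8 other cells. In Cd4+ cells both were lowest in central cells, *Ikzf2* at 112 CPM against 375 in cycling and 411 in other cells, and *Capg* at 148 against 349 and 329. *Lrrc32* stood at 3.49 CPM (1.40–7.20) in Cd4+ central and 23.4 (17.0–31.5) in Cd4+ other cells. The 1918 T cells in no set lay near the Cd4+ classes, with *Ikzf2* at 335, *Izumo1r* at 172 and *Capg* at 263 CPM.

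*Nrp1* had its highest level in the Foxp3+ Il1rl1+ class, at 57.2 CPM (44.6–72.3), but the other 3 Foxp3+ classes stood at 33.9 to 41.8 CPM, below the 44.1 to 48.0 of the Cd4+ classes and the 47.7 of the Zbtb16+ class. Neighbours in this order did not differ beyond their intervals, and the 3 CD8 classes were the lowest, at 20.2 to 24.1 CPM. Within Foxp3+ cells, the 474 with *Il1rl1*, which encodes the IL-33 receptor, had 1.49-fold *Nrp1* (1.16–1.91) and 1.41-fold *Ikzf4* (1.15–1.72) of the 2087 without, and 0.809-fold *Izumo1r* (0.739–0.884). *Foxp3*, *Ikzf2*, *Capg* and *Lrrc32* had ratios of 0.989 to 1.12. None of the 7 reached 2-fold in either direction, as 0.689% and 0.967% of 6823 genes did. The cells with *Il1rl1* were slightly deeper, at 3291.5 against 3052 UMIs, and carried 2 or more β chains in 16.5 against 9.42% of cells with a β chain.

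**Figure D4:**
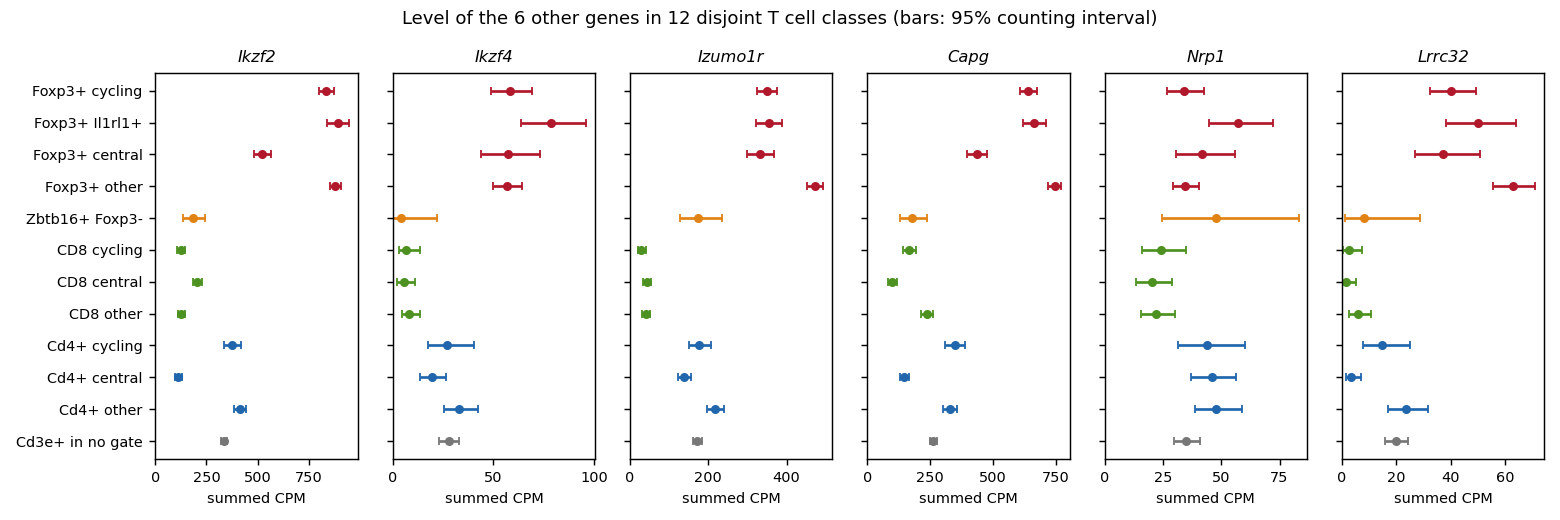
Summed CPM (x axes, each from 0) of the 6 other genes in 12 T cell classes that share no cell (rows), with 95% counting intervals as bars. Red points, the Foxp3+ classes, are the 4 highest for every gene except Nrp1, where the Foxp3+ Il1rl1+ class stood at 57.2 CPM and the other 3 at 33.9 to 41.8 CPM.

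As a description over the 12 classes, which share a library and differ in depth, the genes whose log2(CPM + 10) followed each member most closely were sought among 5065 genes. *Foxp3* is 0 by the class rules in 8 of the 12 classes, so its r values rest largely on how the classes were made. Its closest genes were *Bloc1s1* (Pearson r 0.918), *Vcp* (0.917) and *Fam174a* (0.916). For *Ikzf2* they were *Wls* (0.980), *Atp13a2* (0.974) and *Wnk1* (0.970), for *Ikzf4* *Stk24* (0.984), *Tnfrsf4* (0.981) and *Snx20* (0.980), and for *Izumo1r* *Nrip1* (0.980), *Shisa5* (0.979) and *Zfp36l1* (0.974). *Capg* was followed by *Samsn1* (0.991), *Fis1* (0.985) and *Glrx* (0.984), and *Lrrc32* by *Matk* (0.989), *Tnfrsf1b* (0.987) and *Ddit4* (0.982). For *Nrp1* they were *Tnfrsf25* (0.922), *Heg1* (0.920) and *Ski* (0.908).

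The TCR contigs give a readout that the members did not choose. Among Cd4+Foxp3- cells with a clonotype, 9 of 194 cells with at least 2 other members shared it with a Foxp3+ cell (4.64%, 2.14–8.62), against 13 of 905 with fewer (1.44%, 0.767–2.44). Taken by number, 2.08% (1.04–3.69) of 529 cells with 0 other members, 0.532% of 376 with 1, 5.11% of 137 with 2 and 3.51% of 57 with 3 or more did. The interval of the cells with 0 overlapped that of the cells with at least 2. For scale, 107 of 1722 Foxp3+ cells (6.21%) shared a clonotype with another Foxp3+ cell and 19 of 857 CD8 cells (2.22%) with a Foxp3+ cell. The difference between the cells with at least 2 and those with fewer was 3.20 percentage points (0.511–7.24). It depended on the random draw: over the 20 further draws it was 1.06 to 3.01 points, above 0 in all 20, with an interval above 0 in 5 of them, so the draw used here lay above all of them. Without thinning it was 0.468 points (-1.22–2.48), and without cells with any myeloid marker UMI 1.06 (-0.928–4.64). With clones defined by the β chain alone, the shares were 11.2 and 4.72%, the difference 6.52 points (1.97–12.3), and the range over further draws 2.44 to 7.84, with an interval above 0 in 14 of 20. By this definition 173 of 1494 Foxp3+ cells (11.6%) shared a β chain with another Foxp3+ cell. So did 87 of 835 CD8 cells (10.4%) with a Foxp3+ cell, a share close to the 11.2%. The 9 clonotypes that the cells with at least 2 other members shared were small, 8 of them with 2 T cells each. The largest, clonotype41, held 4 T cells, 2 of them Foxp3+, and its CDR3 sequences show what such sharing rests on.
TRBV3–TRBJ2-1 CDR3: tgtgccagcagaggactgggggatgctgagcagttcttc
TRAV6N-6–TRAJ7 CDR3: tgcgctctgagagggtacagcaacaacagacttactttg

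The tumors were compared last, within Foxp3+ cells. Hashtag calls were thin: 22837655 UMIs matched no tag and 1730 matched a tag, and the latter gave 939 kept cells a tumor, 849 of them by 1 tag UMI. The tags, by which the tumors are told apart, and their UMIs were as follows, 554 and 929 for B16 and 102 and 145 for B16–IL-33.
B16_1: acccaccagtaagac
B16_2: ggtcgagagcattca
B16IL33_1: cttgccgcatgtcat
B16IL33_2: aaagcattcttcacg
In the 57 Foxp3+ cells of B16–IL-33 tumors and the 262 of B16 tumors, *Foxp3* stood at 771 and 593 CPM, a ratio of 1.30 (1.08–1.55), and *Ikzf2* at 1134 and 764 CPM, a ratio of 1.48 (1.28–1.72). A *Foxp3* UMI chose the cells of both tumors, so the *Foxp3* ratio is not independent of the rule of the set. *Lrrc32* stood at 74.6 and 32.7 CPM, a ratio of 2.28 (1.16–4.31) that rests on 15 and 34 UMIs. The intervals of the other ratios included 1, at 1.29 (0.683–2.31) for *Ikzf4*, 0.893 (0.704–1.12) for *Izumo1r*, 0.838 (0.695–1.01) for *Capg* and 0.441 (0.115–1.20) for *Nrp1*, with 4 and 47 UMIs.

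The median log2 ratio of the 7 genes, among them *Foxp3*, by which the cells were chosen, was 0.37. It was -0.15 with the tags numbered 1 alone and 0.23 with those numbered 2. With all tags, the median of the 7 genes' lower bounds was -0.51 and that of their upper bounds 0.64. These bounds do not make an interval of the median itself, so whether it differs from 0 was not tested. Of the 4 with at least 100 UMIs none reached 2-fold in either direction, against 2.1% and 1.11% of 1718 genes. With the tags numbered 1 and with those numbered 2, *Ikzf2* had ratios of 1.35 (1.01–1.78) and 1.55 (1.29–1.85), *Foxp3* of 1.58 (1.16–2.13) and 1.18 (0.933–1.47), and *Lrrc32* of 2.91 (1.06–7.44) and 1.89 (0.677–4.66). A cell with tag UMIs of both numbers of its tumor counted in both repeats. They held 89 and 178 B16 cells, of 262 in all, and so shared some of them. The B16–IL-33 cells were shallower, with medians of 2942 and 3591 UMIs, and held 796 against 292 CPM of the myeloid markers, from 8.77 against 14.5% of cells. The part of these in the ratios was not tested, and the labels do not tell what the numbered tags stand for, so animals and tumor cannot be told apart. In the Cd4+Foxp3- set, only 17 cells were of B16–IL-33 tumors against 159 of B16, and *Capg* stood at 441 and 245 CPM there, a ratio of 1.80 (1.06–2.90).

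**Figure D5:**
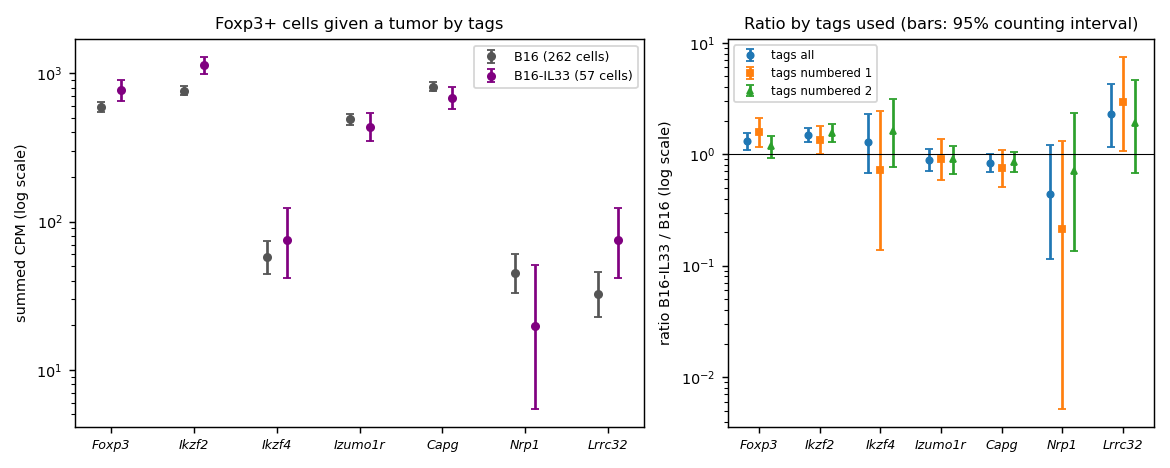
Left, summed CPM (log scale) of the 7 genes in Foxp3+ cells of B16 (262 cells) and B16–IL-33 (57 cells) tumors; right, the ratio of the latter to the former (log scale) with all tags, tags numbered 1 and tags numbered 2, with 95% counting intervals as bars. For Ikzf2 all 3 intervals lie above 1, and for Nrp1 all 3 include 1.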

How the data were processed

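T cells of B16 and B16–IL-33 tumors were pooled and run on a 10x 5′ kit with hashtag and TCR libraries. The authors deposited raw counts of UMIs per gene and barcode, made by Cell Ranger (3.1.0 per the file headers, 6.1.1 per the processing notes in the labels) on a combined human and mouse mm10 reference. Human genes took 0.0197% of UMIs and were left out. They also deposited raw counts of UMIs per hashtag, by a tool not given in the sources used here, and a table of filtered TCR contigs with counts of UMIs per contig and Cell Ranger's clonotypes. Of the barcodes, 11756 were in the hashtag and 6665 in the TCR library. Other libraries of the study were not analysed here.

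Members, gene lists and sets were chosen with earlier results of these data known. The limits on genes and mitochondrial UMIs per cell were those of the study. CPM are summed UMIs per 1000000 UMIs of the set, with exact Poisson intervals. Ratios carry exact conditional binomial intervals, shares Clopper-Pearson intervals and differences of shares square-and-add intervals. Cells of 1 pool are not replicates, so no p-value was computed. Ratios were tested on simulated data: 60% of genes changed 2-fold and 100% of genes changed 4-fold were found past 2-fold in Foxp3+ over Cd4+Foxp3- cells. These shares were 53 and 100% over CD8 cells, and 54 and 96% over Zbtb16+ cells without *Foxp3*. Shares came from 1 seeded draw of 1500 UMIs per cell. No doublet caller was run; instead, 428 cells in which 2 or more productive β chains were found were dropped as an alternative (167 Foxp3+, 118 Cd4+Foxp3-, 85 CD8). The rule for central cells and the B cell marker list were shortened after seeing the data, because 2 genes are not reported here. A cell was given a tumor if all its tag UMIs came from that tumor's tags.

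Besides the members, genes named were the 4 highest and 2 lowest ratios of each list, the 10 highest and 5 lowest of all genes with at least 200 UMIs, the 3 genes most like each member over the classes (mean of at least 20 CPM, log2(CPM + 10)), and markers. Coordinates are from GENCODE M21 (GRCm38). Python 3.11.15, NumPy 2.4.6, SciPy 1.17.1, pandas 2.3.3 and matplotlib 3.10.9 were used. Alternatives changed the cell filters, doublets, myeloid markers, the T cell and Foxp3 gates, overlaps, the way of summing, thinning, the clone definition and the tags.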

Additional observations from a re-analysis of the deposited data

How the results depend on the processing

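No paired analysis was possible because the labels give no replicate numbers within the pool and no result comes from a test across samples. The tag numbers were used for the tumor comparison alone. The 5 genes at 2-fold stayed 5 in each of 11 alternatives against Cd4+Foxp3-, CD8 and Zbtb16+ Foxp3- cells. The share of Cd4+Foxp3- cells with at least 2 other genes moved with depth, to 13.9% at 1000 UMIs per cell, 28.2% at 2500 and 35.7% without thinning, and its highest value over 20 further draws was 20.7%. The difference in clonotype sharing was 0.468 points without thinning. The other 63 main alternatives left a count of genes, which has no counting interval, unchanged or stayed within the spread of the main result. Among them, the clonotype difference without cells with any myeloid marker UMI had an interval that includes 0, 1.06 points (-0.928–4.64). The tumor median was below 0, at -0.15, with the tags numbered 1. Of 196 alternatives for single genes, 178 stayed within the spread of counting error and 18 did not, and 0 turned direction. *Nrp1* in Foxp3+ over Cd4+Foxp3- cells ranged from -0.40 to -0.14 on the log2 scale, *Capg* in Foxp3+ over CD8 cells from 1.38 to 2.19, and the median of the 7 genes between tumors from -0.15 to 0.45. For that median the spread was given only by the medians of the genes' own interval bounds. The further draws, and leaving out cells with any myeloid marker UMI, were chosen after seeing the data. With 1 and 2 UMIs in the 71 Zbtb16+ cells without *Foxp3*, the ratios of *Ikzf4* and *Lrrc32* against them have wide intervals.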
